A study of Homo sapiens with 2 samples.

Results

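The genes described are 8 liver-enriched transcription factor genes, HNF4A, HNF4G, FOXA1, FOXA2, FOXA3, CEBPA, ONECUT1 and PROX1, out of 60623 gene entries in the count tables. They were listed by name as regulators of hepatocyte identity and found by matching each Ensembl gene identifier to its symbol, and all 8 matched 1 entry each. RNA was sequenced from wild-type HepG2 cells, a human liver cancer line that keeps many hepatocyte functions. Both groups were given 1 mM free fatty acids (FFA), a mixture of oleic and palmitic acid carried on albumin, for 24 h. The FFA group received nothing else by its label. The FFA + 9-cis-RA group was also given 10 μM 9-cis-retinoic acid, a vitamin A derivative that activates RXR and RAR nuclear receptors. The paper states that its solvent, DMSO, was matched across groups. It gives 24 h of 9-cis-RA, described both as following the FFA and as co-treatment. Each group is 1 library, and both carry the same batch label, while nothing says that they came from separate cultures. No test between conditions is possible, and no SD, standard error or p-value is given. A library without FFA and cells other than HepG2 were not analysed here.

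These factors work as a network in which each binds the control regions of several others and of the genes that make plasma proteins and metabolic enzymes. FOXA proteins are pioneer factors that open chromatin in the embryonic gut and liver, HNF4A and CEBPA hold the differentiated hepatocyte program, and ONECUT1 and PROX1 act in liver bud outgrowth and in the choice between hepatocyte and bile duct fates. HNF4A and its paralog HNF4G are nuclear receptors that bind the same kind of DNA repeat as RXR dimers, without needing a retinoid.

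The start regions of 5 of the 8 genes were taken from RefSeq (GRCh38.p14), as 6 sequences of 250 bases before to 50 bases after a start site. HNF4A has 2 start sites, 45540 bases apart, whose transcripts the gene count adds together, so both are shown. CEBPA and FOXA3 are shown as the members with the highest and the lowest log2 fold change among these 5. LINC00261, a long noncoding RNA beside FOXA2, is shown because it stood apart from FOXA2 in the counts. CEBPA-DT and HNF4A-AS1, noncoding RNAs beside CEBPA and HNF4A, also stood apart from those genes and are not shown. No sequence was used for HNF4G, FOXA2 and PROX1, so the motif and GC values leave them out. Capitals mark matches, on either strand, to 3 short motifs, and no match overlapped another. The nuclear receptor half-site was searched as AGGTCA. The core motif of forkhead proteins, the FOXA family among them, was searched as GTAAACA. The TATA box, which positions the start of transcription, was searched as TATAAA.
HNF4A upstream start, chr20:44355449-44355748, plus strand: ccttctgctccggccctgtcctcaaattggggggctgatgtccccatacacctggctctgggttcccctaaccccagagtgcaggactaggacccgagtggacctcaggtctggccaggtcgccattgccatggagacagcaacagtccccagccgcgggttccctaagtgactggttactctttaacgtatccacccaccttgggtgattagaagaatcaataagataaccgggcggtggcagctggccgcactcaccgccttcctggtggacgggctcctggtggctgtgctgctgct
HNF4A downstream start, chr20:44400989-44401288, plus strand: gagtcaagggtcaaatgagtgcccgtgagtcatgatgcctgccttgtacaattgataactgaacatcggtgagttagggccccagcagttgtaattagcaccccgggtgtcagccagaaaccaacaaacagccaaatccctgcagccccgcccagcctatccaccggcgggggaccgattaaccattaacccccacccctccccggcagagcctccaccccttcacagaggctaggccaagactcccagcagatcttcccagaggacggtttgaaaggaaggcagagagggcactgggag
CEBPA, chr19:33302485-33302784, minus strand: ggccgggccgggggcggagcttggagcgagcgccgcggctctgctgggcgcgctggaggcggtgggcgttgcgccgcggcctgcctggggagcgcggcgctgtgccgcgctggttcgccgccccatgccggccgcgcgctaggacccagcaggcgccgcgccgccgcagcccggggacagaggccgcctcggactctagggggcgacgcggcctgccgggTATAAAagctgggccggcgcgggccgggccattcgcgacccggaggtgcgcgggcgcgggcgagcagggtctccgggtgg
FOXA3, chr19:45864076-45864375, plus strand: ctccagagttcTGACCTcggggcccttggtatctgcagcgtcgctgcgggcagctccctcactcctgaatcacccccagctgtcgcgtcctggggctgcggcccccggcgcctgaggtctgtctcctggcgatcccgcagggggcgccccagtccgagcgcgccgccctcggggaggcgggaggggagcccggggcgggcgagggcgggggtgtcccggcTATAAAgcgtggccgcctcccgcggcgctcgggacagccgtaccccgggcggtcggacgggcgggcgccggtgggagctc
LINC00261, chr20:22578593-22578892, minus strand: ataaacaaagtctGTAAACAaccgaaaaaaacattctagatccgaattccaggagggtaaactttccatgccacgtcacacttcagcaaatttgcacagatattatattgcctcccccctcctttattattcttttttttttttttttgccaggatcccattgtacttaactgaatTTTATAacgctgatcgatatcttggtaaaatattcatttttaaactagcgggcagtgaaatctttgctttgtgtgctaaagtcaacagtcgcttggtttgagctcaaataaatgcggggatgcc

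AGGTCA was found in 13.8% of the 35116 RefSeq start regions of this length, GTAAACA in 3.42% and TATAAA in 11.5%. The TATAAA of CEBPA and that of FOXA3 both began at position -30 from the start site. FOXA3 held AGGTCA on the minus strand at position -239, and LINC00261 held GTAAACA at position -237 and TATAAA on the minus strand at position -74. Both start regions of HNF4A and those of FOXA1 and ONECUT1 held none of the 3 motifs. Those searched for the noncoding RNAs CEBPA-DT, PROX1-AS1 and HNF4A-AS1 also held none. The 6 member sequences had a median GC content of 72.2%, against 58.7% over all start regions (quartiles 47% and 68%). A match is a description of the letters in the window and not evidence of binding.

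The authors deposited fragment counts per gene, 60821539 with FFA and 57669670 with FFA + 9-cis-RA. As a check of the label, the retinoid response gene CYP26A1, whose enzyme clears retinoic acid, had 4 and 709 counts, so the libraries match their labels in this respect. The log2 fold change is FFA + 9-cis-RA against FFA, from counts divided by size factors with a pseudocount of 1, which understates the change of genes with few counts. It was taken for the 20431 genes whose counts summed to 10 or more, and all 8 members passed that minimum. Each 95% interval is exact and covers counting error only, so it sets these 2 libraries against each other and not the conditions. The spread between cultures of the same treatment could not be measured.

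Of the 8 genes, 7 were lower in the FFA + 9-cis-RA library and CEBPA was higher. PROX1 stood lowest at a log2 fold change of -1.46, followed by FOXA3 at -0.80. The median over the 8 was -0.36, against -0.020 over all compared genes, whose quartiles were -0.26 and 0.18. Of those 20431 genes, 10680 were lower and 9751 were higher. Among the 8807 genes with at least 1000 normalized counts in a library, 4281 were lower. PROX1 was the single member past 1 on the log2 scale in either direction, a threshold that 8.28% of compared genes passed, and 4.9% of compared genes were below -1. The counting interval lay wholly below 0 for 6 of the 8, as it did for 25.7% of all compared genes and for 35.7% of the 8807 genes with at least 1000 normalized counts in a library. It lay wholly above 0 for CEBPA, as it did for 22.5% of compared genes. In bulk RNA, fewer cells of a kind and less RNA per cell cannot be told apart.

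**Figure D1:**
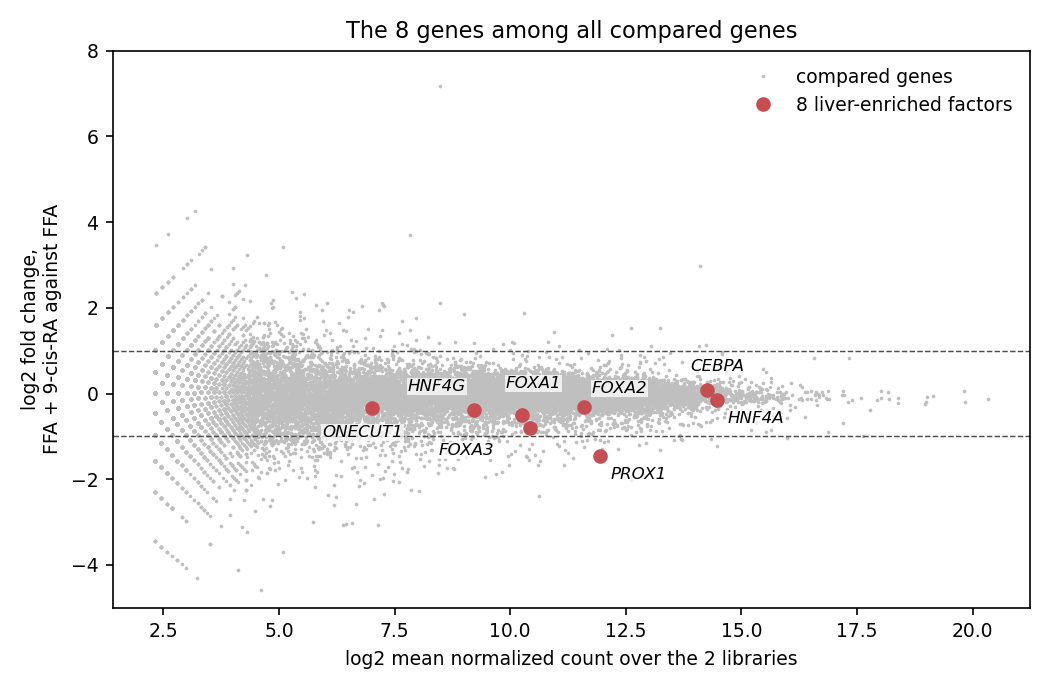
Log2 fold change of FFA + 9-cis-RA against FFA (vertical axis) by the log2 mean normalized count over the 2 libraries (horizontal axis), for the 20431 compared genes in gray and the 8 liver-enriched factors in red, with dashed lines at -1 and 1. PROX1 lies at -1.46, below most genes of like count, while CEBPA at 0.083 and HNF4A at -0.14 lie near 0.

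Levels between genes are compared as TPM, a share of all transcripts in which each count is divided by the gene's length in the table, the union of its annotated exons. In the FFA library, CEBPA stood at 350 TPM (95% interval 346 to 355) and HNF4A at 158 TPM (156 to 160). FOXA2 followed at 63.1 TPM, FOXA3 at 39.8, PROX1 at 31.2, FOXA1 at 15.7, HNF4G at 6.80 and ONECUT1 at 1.14. Neighbors in this order did not overlap in their counting intervals, and the highest level was 308 times the lowest. In the FFA + 9-cis-RA library the order was the same, from CEBPA at 395 TPM (390 to 401) and HNF4A at 152 TPM (150 to 154) to ONECUT1 at 0.965 TPM. There PROX1 at 12.04 TPM (11.5 to 12.6) and FOXA1 at 11.8 TPM (11.04 to 12.5) could not be told apart. CEBPA and HNF4A together held 76.3% of the summed TPM of the 8 genes with FFA and 83.5% with FFA + 9-cis-RA. The sums themselves were close, 666 and 656 TPM, but a difference in TPM between the libraries depends on the scaling. By size factors, CEBPA was 1.06 times and HNF4A 0.905 times its FFA level, less in both than the TPM values give. Sums of TPM in the 2 libraries are thus not on the scale of the log2 fold changes.

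**Figure D2:**
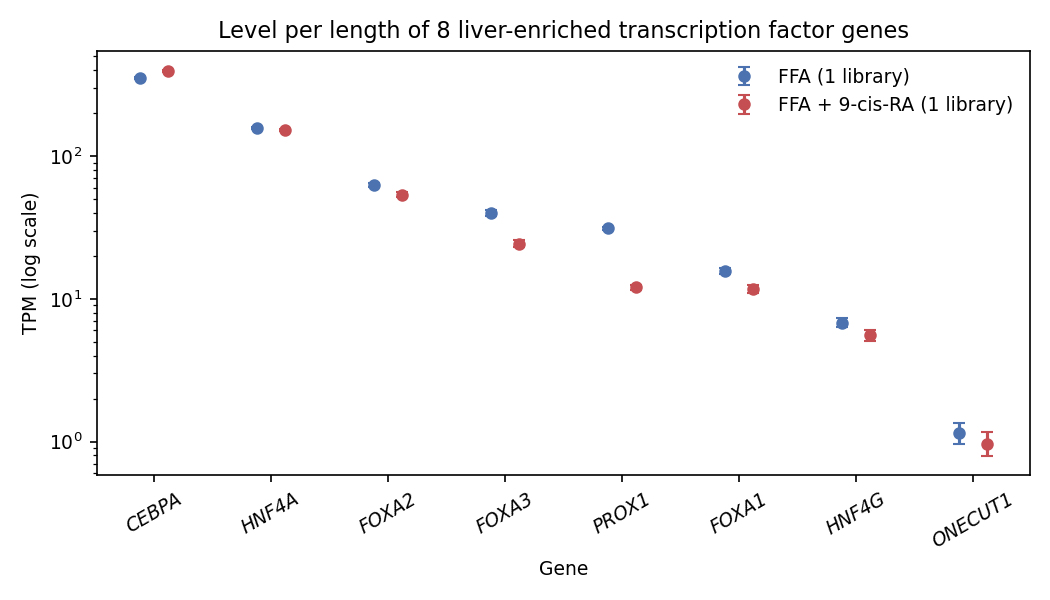
Level of each of the 8 genes in TPM on a log scale, in the FFA library (blue) and the FFA + 9-cis-RA library (red), with exact 95% Poisson intervals of the count. PROX1 goes from 31.2 to 12.04 TPM and meets FOXA1, while CEBPA goes from 350 to 395 TPM. TPM was not scaled by the size factors used for the log2 fold changes.

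HNF4A encodes the nuclear receptor that occupies the control regions of a large share of liver genes, and lies on the plus strand of chromosome 20 from 44355700 to 44434596 (GRCh38). Counts were 24238 with FFA and 21509 with FFA + 9-cis-RA, so the log2 fold change was -0.14 (95% interval -0.17 to -0.12), which is 0.905 times the FFA level. The difference is small: 35.2% of compared genes had a lower log2 fold change. HNF4G, a paralog with the same DNA-binding preference that is better known from the intestine, lies on chromosome 8 from 75407914 to 75566834. Counts were 685 and 514, for a log2 fold change of -0.39 (95% interval -0.55 to -0.22). Per length, HNF4A stood 23.2 times above HNF4G with FFA and 27.5 times with FFA + 9-cis-RA, so HNF4A made up 95.9% and 96.5% of the HNF4 level. HNF4A stood above HNF4G in log2 fold change by 0.24 (0.073 to 0.41), a difference that does not depend on the scaling of the libraries.

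The FOXA genes encode the forkhead pioneer factors, and all 3 were lower in the FFA + 9-cis-RA library. FOXA2, on chromosome 20 from 22581005 to 22585455, had 3448 and 2706 counts, for a log2 fold change of -0.32 (95% interval -0.40 to -0.25). FOXA1, on chromosome 14 from 37589552 to 37596059, had 1456 and 1004 counts, for a log2 fold change of -0.51 (-0.63 to -0.39). FOXA3, on chromosome 19 from 45863989 to 45873797, had 1777 and 1003 counts, for a log2 fold change of -0.80 (-0.91 to -0.68). These 3 values stood apart from each other: FOXA1 was 0.29 (0.13 to 0.45) above FOXA3 and 0.19 below FOXA2, with an interval of -0.33 to -0.048 for FOXA1 minus FOXA2. The summed FOXA level was 119 TPM with FFA and 89.9 TPM with FFA + 9-cis-RA. FOXA2 held 53.2% of it in the former and 59.8% in the latter, while FOXA3 held 33.6% and 27.1%, and FOXA1 held 13.2% and 13.1%.

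CEBPA encodes the leucine zipper factor C/EBPα, which drives metabolic genes of the mature hepatocyte and restrains proliferation. It is a gene without introns on the minus strand of chromosome 19 from 33299934 to 33302534, with 19131 and 19873 counts. The log2 fold change was 0.083 (95% interval 0.054 to 0.11), or 1.06 times the FFA level. This is the single member that was higher with 9-cis-RA added, and 64.5% of compared genes had a lower value. Its relatives gave different values. CEBPB, which responds to inflammatory signals, had 4249 and 4937 counts, for a log2 fold change of 0.24 (0.18 to 0.30). CEBPD, an acute phase regulator, had 918 and 505 counts, for a log2 fold change of -0.83 (-0.99 to -0.68). CEBPD thus stood 0.92 below CEBPA, with an interval of -1.08 to -0.76 for CEBPD minus CEBPA. CEBPG had 8409 and 8216 counts and an interval that held 0 (-0.050 to 0.038), and its sign changed with the scaling. CEBPE, a myeloid factor, had 1 count and 0 counts, too few to compare.

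ONECUT1, or HNF6, encodes a cut homeodomain factor of the liver, bile duct and pancreas, and lies on chromosome 15 from 52755053 to 52791078. The gene had the lowest counts of the 8, 146 with FFA and 114 with FFA + 9-cis-RA. At a log2 fold change of -0.33 its interval held 0 (-0.70 to 0.034), so no difference was detectable at this depth. ONECUT2, its relative, stood 3.30 times above it per length with FFA and 3.59 times with FFA + 9-cis-RA. ONECUT2 had 1304 and 1108 counts, for a log2 fold change of -0.21 (-0.32 to -0.091), and the log2 fold changes of the ONECUT pair could not be told apart (difference 0.12, interval -0.26 to 0.51). ONECUT3 had 0 counts in both libraries, where the limit is 0.0493 CPM, the depth-scaled count, with FFA and 0.0520 CPM with FFA + 9-cis-RA.

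PROX1 encodes a homeodomain factor that liver progenitors need to grow out of the bud, that marks lymphatic endothelium, and that acts as a corepressor of HNF4A and NR5A2. It lies on the plus strand of chromosome 1 from 213983181 to 214041510, with 5854 counts under FFA and 2080 under FFA + 9-cis-RA. The log2 fold change came to -1.46 (95% interval -1.54 to -1.39), or 0.362 times the FFA level. Genes with this many counts seldom reached such a value: among the 8807 genes with at least 1000 normalized counts in a library, 0.67% were below -1 and 13 were lower than PROX1. PROX1 stood below each of the other 7 members, with an interval that left out 0 for all 7 pairs. The gap was 1.55 (1.47 to 1.63) from CEBPA, 1.32 (1.24 to 1.40) from HNF4A and 0.67 (0.53 to 0.80) from FOXA3, the nearest. Per length, PROX1 stood at 0.198 times HNF4A in the FFA library and at 0.0791 times HNF4A in the FFA + 9-cis-RA library. Its relative PROX2 had 0 counts in both libraries.

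Because PROX1 also marks lymphatic endothelium, the endothelial markers were set beside it. All 3 were lower in the FFA + 9-cis-RA library: VWF had 184 and 118 counts, PECAM1 had 52 and 29, and STAB2 had 11 and 3. The counting interval lay wholly below 0 for 2 and held 0 for STAB2 (-4.33 to 0.074). Over all compared genes, 10680 of 20431 were lower and 25.7% had an interval wholly below 0. The summed level of the 3 markers was 1.22 TPM with FFA and 0.798 TPM with FFA + 9-cis-RA, against 31.2 and 12.04 TPM for PROX1. The part of these transcripts in the PROX1 difference was not tested.

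Over all 28 pairs of members, the interval of the difference in log2 fold change left out 0 for 22 pairs and held 0 for 6. These intervals are conditional exact intervals of a ratio of count ratios, each at 95% with no adjustment over the pairs. The share over pairs of other genes was not computed, so these counts cannot be called particular to the members. The 7 pairs of PROX1 carry the same limit. Taken singly, 25.7% of compared genes had a counting interval wholly below 0 and 22.5% had it wholly above 0. The 6 pairs that could not be told apart were those of ONECUT1 with HNF4A, HNF4G, FOXA1 and FOXA2, and those of HNF4G with FOXA1 and FOXA2. By value, CEBPA stood at the top, followed by HNF4A, then FOXA2, ONECUT1, HNF4G and FOXA1 between -0.32 and -0.51, then FOXA3 and PROX1. This order is not a set of separate tiers, since ONECUT1 could not be told apart from HNF4A, while FOXA1 and FOXA2 could be told apart.

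**Figure D3:**
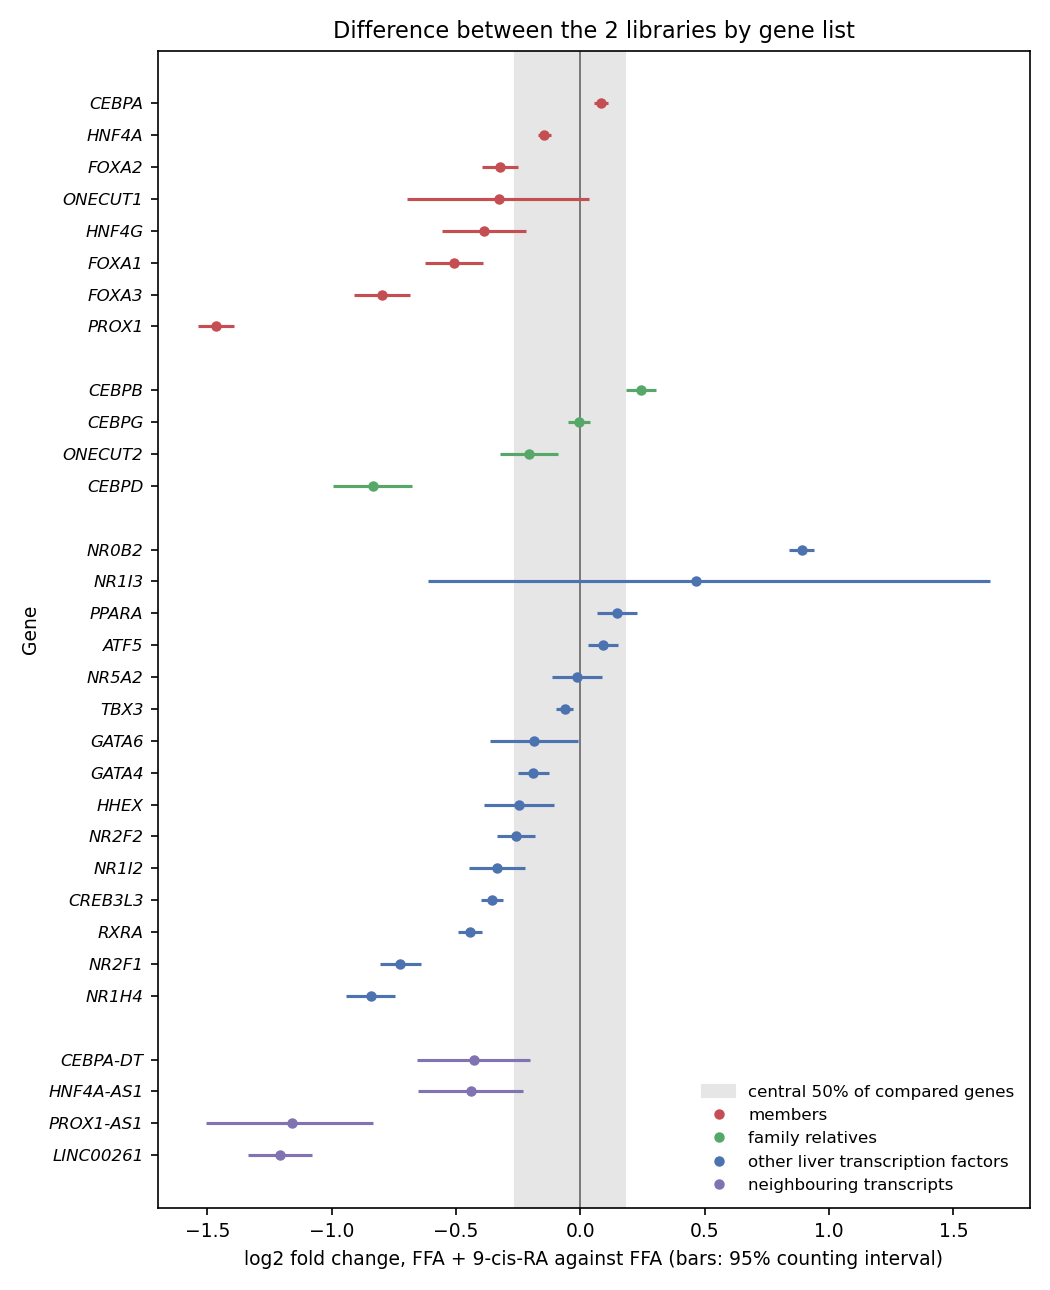
Log2 fold change of FFA + 9-cis-RA against FFA (horizontal axis) with exact 95% counting intervals, for the 8 members, their compared relatives, the other liver transcription factors and the neighboring transcripts. The gray band is the central 50% of compared genes, from -0.26 to 0.18. PROX1 at -1.46 is the lowest gene shown and NR0B2 at 0.89 the highest.

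A list of 15 other transcription factors of the liver network was set beside the members. All 15 passed the count minimum, 11 were lower and 4 were higher, and the median was -0.19. The counting interval lay wholly below 0 for 10, wholly above 0 for 3, and held 0 for NR5A2 and NR1I3, and none of the 15 passed 1 on the log2 scale in either direction. Over all compared genes these shares were 25.7% below 0, 22.5% above 0 and 8.28% past 1, so the counts above 0 and past 1 were near the background. Most of the 15 had at least 1000 normalized counts in a library. Among the 8807 genes with such counts, 35.7% had an interval wholly below 0 and 0.67% had a log2 fold change below -1. In direction alone, 10680 of the 20431 compared genes were lower.

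GATA4, GATA6, HHEX and TBX3, which act in early liver development, lay between -0.25 and -0.063. GATA4 had a log2 fold change of -0.19 (-0.25 to -0.13), GATA6 one of -0.19 (-0.36 to -0.010), HHEX one of -0.25 (-0.39 to -0.11) and TBX3 one of -0.063 (-0.097 to -0.029). CREB3L3, a membrane-bound factor of fasting metabolism, had 9452 and 7242 counts, for a log2 fold change of -0.36 (-0.40 to -0.31). ATF5, a stress-responsive factor rich in liver, had 4450 and 4649 counts and stood slightly higher at 0.091 (0.031 to 0.15).

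The nuclear receptors of the list spread furthest. NR1H4, the bile acid receptor FXR, had 2305 and 1260 counts, for a log2 fold change of -0.84 (-0.94 to -0.74). NR2F1, a COUP orphan receptor that competes for HNF4A sites, had 3192 and 1896 counts, for a log2 fold change of -0.72 (-0.81 to -0.64), and NR2F2 had one of -0.26 (-0.34 to -0.18). NR0B2, or SHP, a corepressor whose gene FXR activates, had 5085 and 9244 counts, for a log2 fold change of 0.89 (0.84 to 0.94). NR0B2 and NR1H4 thus lay at opposite ends, 1.73 apart (1.62 to 1.85). RXRA, the main RXR of liver and a receptor of 9-cis-RA, had 8291 and 5978 counts, for a log2 fold change of -0.44 (-0.49 to -0.40). NR1I2, the xenobiotic receptor PXR, stood at -0.33 (-0.45 to -0.22), and PPARA, the fatty acid receptor, at 0.15 (0.068 to 0.23). NR5A2, a receptor that PROX1 represses, had 1611 and 1567 counts, an interval that held 0 (-0.11 to 0.089) and a sign that changed with the scaling. NR1I3 had 13 and 18 counts, with an interval that held 0 (-0.61 to 1.65).

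For each member, the gene nearest to it in log2 CPM over both libraries was sought among the 27 compared members, relatives and other liver factors. This likeness rests on 2 libraries and mostly reflects the level. HNF4A and CEBPA were nearest to each other at a distance of 0.36. FOXA1 lay nearest to ONECUT2 at 0.21, FOXA3 to FOXA1 at 0.29, FOXA2 to NR2F2 at 0.26 and HNF4G to GATA6 at 0.27. PROX1 lay 0.85 from FOXA2 and ONECUT1 lay 2.89 from GATA6, so these 2 had no near neighbor.

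Several of the factor genes have a noncoding partner beside them. All 4 partners with enough counts were lower in the FFA + 9-cis-RA library, with a median of -0.80. Over all compared genes, 10680 of 20431 were lower, the median was -0.020, and 25.7% had a counting interval wholly below 0. LINC00261 lies on the same strand as FOXA2 and starts 2.36 kb past its end. It had 1673 and 711 counts, for a log2 fold change of -1.21 (95% interval -1.34 to -1.08), which placed it 0.88 below FOXA2 (interval -1.03 to -0.74 for LINC00261 minus FOXA2). PROX1-AS1, which runs antisense to PROX1 and shares 171 exonic bases with it on the opposite strand, had 247 and 108 counts, for a log2 fold change of -1.16 (-1.51 to -0.83). The difference between PROX1-AS1 and PROX1 was 0.30 with an interval that held 0 (-0.049 to 0.64). CEBPA-DT starts 287 bases from CEBPA in the opposite direction and had 387 and 282 counts, for a log2 fold change of -0.43 (-0.66 to -0.20). It thus stood on the other side of 0 from CEBPA, with a difference of -0.51 (-0.74 to -0.28). HNF4A-AS1 had 445 and 322 counts, for a log2 fold change of -0.44 (-0.65 to -0.23), and stood below HNF4A by an interval of -0.51 to -0.083. HNF4GP1, a pseudogene of HNF4G, had 0 counts in both libraries.

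The counting used strand, so antisense transcripts were counted apart from the members. No gene shared exonic bases with a member on the same strand, where reads would have been dropped. On the opposite strand, 2 unnamed transcripts covered 25.3% and 18.5% of the exonic bases of CEBPA, with 13 counts in each library for the former and 86 and 72 for the latter. TTC6 shared 16 bases with FOXA1.

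The surroundings of each member were then described within 250 kb on either side, a window chosen after the values were seen. Of 54 compared genes in these windows, 25 were higher and 29 were lower, with a median of -0.013. The counting interval lay wholly below 0 for 25.7% of all compared genes and for 3 of the 4 compared genes around PROX1. All 4 had values below 0. They were PROX1-AS1, an unnamed antisense transcript that lies within PROX1, with 57 and 13 counts and a log2 fold change of -2.02 (95% interval -3.10 to -1.22), LINC00538 with 14 and 9 counts and an interval that held 0 (-2.00 to 0.70), and SMYD2, 240 kb away, with 2361 and 2109 counts and a log2 fold change of -0.14 (-0.22 to -0.050). LINC00538 and the unnamed transcript both lie within the span of PROX1-AS1 on its strand, so of the 4 only SMYD2 is apart from it. Around FOXA3, 17 genes were compared with a median of -0.052, and its closest neighbor SYMPK had a log2 fold change of -0.068 (-0.13 to -0.0076). Around HNF4A, 8 of 15 genes were higher and 7 were lower, with a median of 0.12. R3HDML, 4.46 kb upstream of HNF4A, had 0 and 12 counts. Around CEBPA, 10 genes had a median of -0.033, and CEBPG lay 71.2 kb away.

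**Figure D4:**
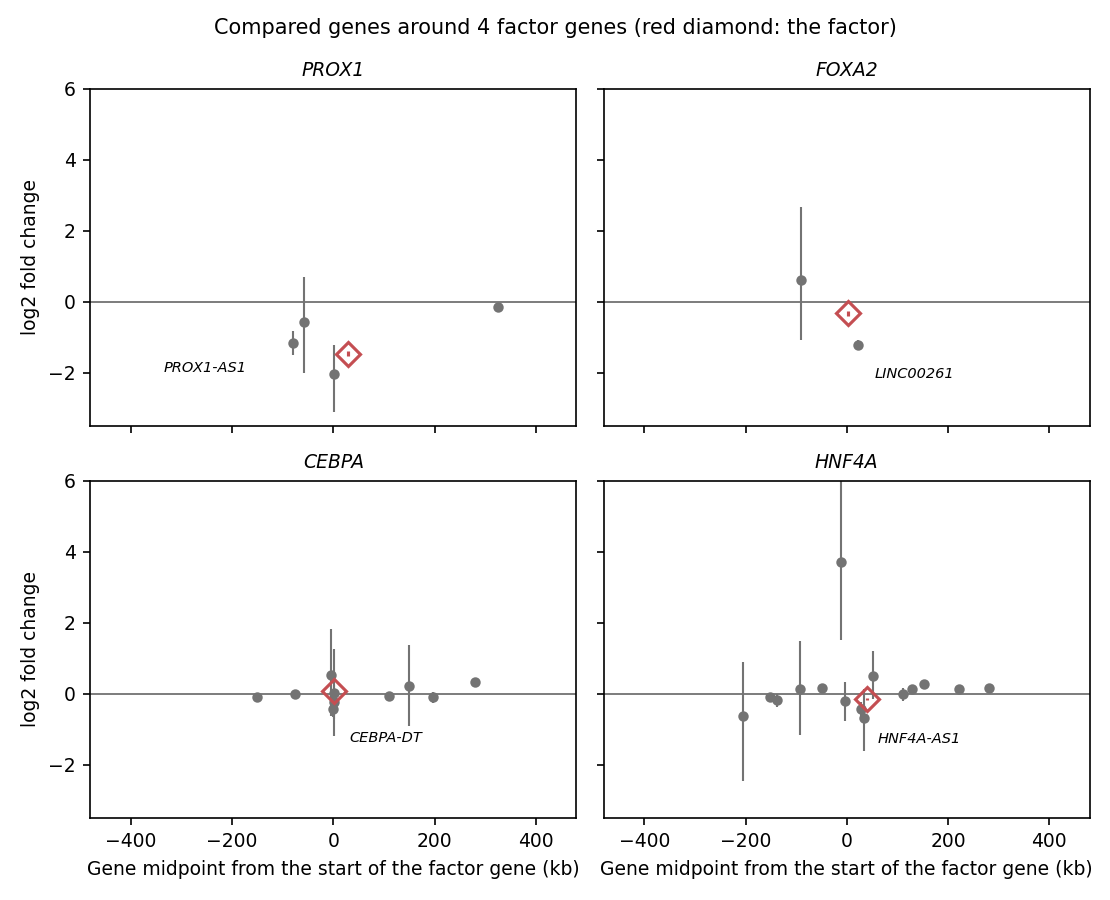
Log2 fold change of the compared genes within 250 kb (gray points, 95% counting intervals, upper bound of 1 gene with 0 FFA counts beyond the axis) by the distance of their midpoint from the start of PROX1, FOXA2, CEBPA or HNF4A, in kb along the direction of the factor gene, which is the red diamond. PROX1 at -1.46 lies beside antisense transcripts at -1.16 and -2.02, the latter within the span of the former. The 10 genes around CEBPA have a median of -0.033, with CEBPA-DT at -0.43.

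Genes that HNF4A, C/EBPα and FOXA proteins are known to bind were described from 3 lists that share members. Of 22 HNF4A targets 21 were compared, 16 were lower and 5 were higher, and the median was -0.24. Over all compared genes, 10680 of 20431 were lower, which is the background for each of the 3 lists. APOB, the main protein gene of secreted lipoproteins, was close to level: it had 262363 and 266440 counts, for a log2 fold change of 0.050 (0.042 to 0.058). The lowest 2 with at least 100 normalized counts were OTC, a urea cycle enzyme gene with 436 and 132 counts at -1.69 (-1.99 to -1.41), and CYP2D6, a drug-metabolizing P450 gene with 132 and 48 counts at -1.41 (-1.94 to -0.945). CYP2D6 has near-identical copies, and reads that map to several places were not counted, so its value is uncertain. The highest was PCK1, the rate-limiting enzyme gene of gluconeogenesis, with 40 and 138 counts at 1.79 (1.30 to 2.36).

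Of 10 C/EBPα targets 8 were compared, 7 were lower, and the median was -0.68. ALB, the albumin gene, had 186609 and 112866 counts, for a log2 fold change of -0.70 (-0.71 to -0.69), and HP, the haptoglobin gene, had 2346 and 1273 counts at -0.85 (-0.95 to -0.76). HP has a near-identical neighbor gene, which makes its count uncertain. ARG1 and GYS2 had 0 counts in both libraries, although both mark mature hepatocytes. TF, the transferrin gene, was the highest after PCK1 at -0.19 (-0.21 to -0.17).

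All 8 FOXA targets were compared, 6 were lower and 2 were higher, with a median of -0.46. AFP, the fetal albumin relative, had 273242 and 134862 counts, for a log2 fold change of -0.99. TAT, an amino acid enzyme gene, had 259 and 151 counts at -0.75 (-1.05 to -0.46). SERPINA1, the antitrypsin gene, stood at 0.036 (0.029 to 0.044) with 294592 and 296345 counts. All 3 medians lay below the -0.020 of all compared genes, and PCK1, ALB, TTR, TAT, CPS1, G6PC1, OTC, TF and SERPINA1 count in more than a single list. A link between a factor's level and its targets was not tested.

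**Figure D5:**
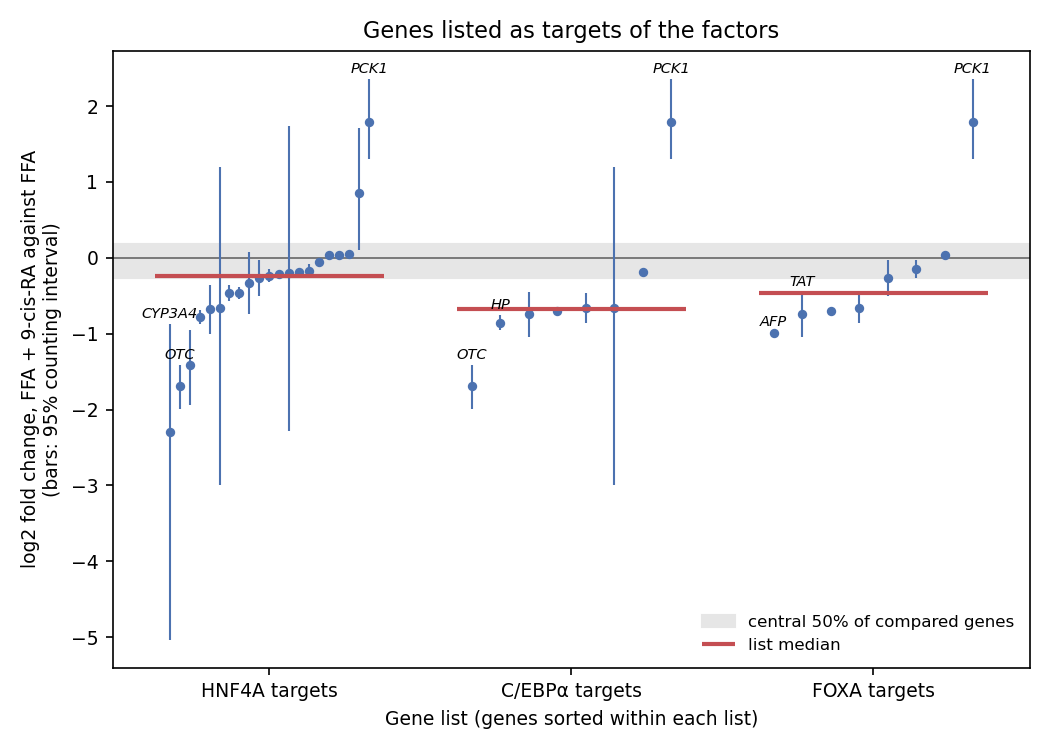
Log2 fold change of FFA + 9-cis-RA against FFA (vertical axis) for compared genes listed as targets of HNF4A, C/EBPα or FOXA proteins, sorted within each list, with exact 95% counting intervals and the list median in red. The medians lie at -0.24, -0.68 and -0.46, and PCK1 at 1.79 is the highest point of each list.

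The HepG2 label was checked against markers. All 8 hepatocyte markers had counts, with a summed level of 11404 TPM with FFA and 10655 TPM with FFA + 9-cis-RA, and 4 were higher and 4 were lower. Hepatoblast markers summed to 4260 and 2348 TPM, mostly AFP. Their 3 compared genes were all lower, as were 10680 of all 20431 compared genes. Biliary markers summed to 3442 and 2029 TPM, mostly SPP1, with CFTR at 0 counts. SOX9, a bile duct factor, had 12132 and 11146 counts, for a log2 fold change of -0.095 (-0.13 to -0.057). KRT19 had 2301 and 1663 counts at -0.44 (-0.53 to -0.35), and KRT7 had 15 and 8 counts with an interval that held 0 (-2.32 to 0.45). Intestinal markers summed to 42.4 and 54.2 TPM, almost all of it LGR5, with CDX1 and SI at 0 counts and CDX2 at 3 and 14.

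Cells of other origin left little signal. Blood and Kupffer markers summed to 0.389 and 0.572 TPM with PTPRC at 0 counts, and stellate and fibroblast markers to 19.3 and 13.7 TPM, almost all from ACTA2, with DCN at 0 counts and COL1A1 at 1 and 2. The compared hepatoblast and biliary markers were lower, as most members were and as 10680 of the 20431 compared genes were. The part of hepatoblast and biliary transcripts in the members' differences was not tested.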

How the data were processed

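For 1 FFA and 1 FFA + 9-cis-RA library of poly(A) RNA, the authors deposited raw counts of fragments per gene. Per the file headers, featureCounts (version 2.0.1) took reverse-strand pairs (setting 2) whose ends both mapped, with the fragment length checked. Reads with several positions or genes are not counted by that program's defaults. The build is GRCh38, and the aligner and annotation release are not given in the sources used here. DESeq2, which the submitters name, cannot estimate replicate error here, so edgeR and DESeq2 were used for scaling alone.

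Symbols came from a table that named 60295 of the 60623 identifiers, and 19916 entries were protein-coding in GENCODE. Size factors were from DESeq2 version 1.42.0 and TMM factors from edgeR version 4.0.16 (R version 4.3.3). Intervals and trends came from scipy 1.17.1 and statsmodels 0.14.6 in Python 3.11.15, and figures from matplotlib 3.10.9. Log2 fold changes have Clopper-Pearson intervals of the share of counts, TPM have Poisson intervals, and differences between genes have conditional intervals of the odds ratio. All are exact, at 95%, and cover counting error only. PCR duplicates are not independent molecules. Floors are 3 counts.

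The members and lists were chosen with earlier results of these data known. Named are all members, relatives, network factors and noncoding partners, the 2 highest and 2 lowest targets per list with at least 100 normalized counts, and CYP26A1. Other named targets, markers and genes in the windows were chosen after their values were seen. Alternatives were other scalings, pseudocounts, count minimums and removal of loess trends (span 0.3). The steps were tested on simulated data. Of the listed network factors, 2 are not reported here and stay out of the list's counts.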

Additional observations from a re-analysis of the deposited data

How the results depend on the processing

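The direction of each of the 8 members was the same under TMM factors, total-count scaling, size factors from protein-coding genes, pseudocounts of 0.1 and 5, and removal of the trend on expression or length, with PROX1 between -1.51 and -1.42 and FOXA3 between -0.83 and -0.73. The values that moved past their counting interval were those of the 2 most deeply counted genes. HNF4A was at -0.096 with total counts, at -0.11 with the expression trend removed and at -0.19 with the length trend removed. CEBPA was at 0.13 with total counts and at 0.14 with the length trend removed. The number of all genes past 1 in either direction, 1691 as reported, was 935 with a pseudocount of 5, 6264 without a minimum count and 514 with a minimum of 50 counts, where fewer genes are compared, while 1 member passed it each time. Without length, in CPM, 5 of the 8 members changed place in the order of levels, with HNF4A first. Of the other listed factors, NR5A2 and CEBPG changed sign with the scaling. No paired analysis was possible because each group has 1 library. For the same reason no library could be left out, and depth limits ONECUT1 most, with 146 and 114 counts.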
